A study of Homo sapiens with 12 samples.

Results

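The 10 genes KLK5 to KLK14 encode tissue kallikreins, secreted serine proteases whose genes lie side by side on chromosome 19. They were taken by gene symbol from the count tables, in which all 10 are among 23228 genes. Of the 10, 9 had a read in at least 1 library and 7 (KLK5, KLK6, KLK7, KLK8, KLK9, KLK10 and KLK14) passed the filter on low counts, which kept 14571 genes for testing. Each of the 7 reached the level the filter asks for, 0.441 CPM, in all 12 libraries. KLK11 and KLK13 fell below the filter, and KLK12 had no read.

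Kallikreins are made as inactive proenzymes and activate one another in a cascade. In the epidermis and other lining tissues they cut the adhesion proteins that hold cells together, and they also cleave proteinase-activated receptors on the cell surface. Several of them are known as secreted tumour markers whose levels differ between normal and malignant breast epithelium.

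The RNA came from MDA-MB-468 cells, a long-established line of human triple-negative breast cancer of basal type, and its poly(A) fraction was sequenced in 4 groups of 3 libraries named A, B and C. The combination group received 5 µM tazemetostat from day -5 and 5 µM ipatasertib from day 0. The ipatasertib group received DMSO from day -5 and 5 µM ipatasertib from day 0, the tazemetostat group received 5 µM tazemetostat from day -5, and the DMSO group received vehicle only. All 4 groups were moved on day 0 to medium with 2% serum and were collected 24 h later. Ipatasertib inhibits the kinase AKT, and tazemetostat inhibits EZH2, the methyltransferase of the Polycomb repressive complex that marks silenced genes. The ipatasertib exposure was thus shorter than the tazemetostat exposure, and all results are from 1 line. Nothing in the labels says that A, B and C were grown from separate cultures, so the p-values reflect only how these libraries vary, and that variation may be technical.

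Libraries held 12981622 to 17948209 counts in genes with the combination, 18926477 to 25468348 with ipatasertib, 19023947 to 26070000 with tazemetostat and 22682755 to 28746965 with DMSO. Reads assigned to no gene made up 24.3% to 26.2% of the counted total with the combination, 22.3% to 24.3% with ipatasertib, 19.8% to 23.0% with tazemetostat and 18.2% to 21.0% with DMSO. The part of these differences in the kallikrein results was not tested. Within each group, A differed more from B and C than these did from each other, with a chi-square per degree of freedom over genes of 4.36 to 15.5 for pairs with A, against 2.41 to 3.61 for B with C. The basal markers KRT5, KRT14, KRT17, KRT6B, EGFR, CDH3 and VIM all had reads in every group. Against DMSO, 3 of these 7 were called higher and 4 lower with the combination (34.4% and 30% over all tested genes). With ipatasertib 2 were called higher and 4 lower (24% and 23.1%), and with tazemetostat 2 higher and 3 lower (25.9% and 21.3%). KRT5, a keratin of basal cells, averaged 443 ± 35.7 CPM with the combination, 1171 ± 67.3 with ipatasertib, 1022 ± 39.9 with tazemetostat and 1718 ± 74.3 with DMSO (SD, n = 3). Against DMSO, KRT6B was 2.03-fold lower with the combination, EGFR was 2.12-fold higher with ipatasertib, and VIM was 2.93-fold higher with tazemetostat. Of the receptors that define a triple-negative line when absent, PGR stayed at or below 0.105 CPM and ESR1 at or below 2.09 CPM in all 12 libraries. The 6 fibroblast markers summed to 9.48 to 11.4 CPM with the combination, 5.23 to 5.53 CPM with ipatasertib, 15.7 to 19.3 CPM with tazemetostat and 9.72 to 11.7 CPM with DMSO, and LUM and DCN had no read with ipatasertib or DMSO. LUM reached the filter's level only in libraries with tazemetostat, alone or combined. Of 5 leukocyte markers, CD14 gave nearly all reads, and the sum was 58.5 to 68.4 CPM with the combination, 75.6 to 97.5 CPM with ipatasertib, 53.1 to 61.2 CPM with tazemetostat and 77.3 to 83.3 CPM with DMSO. PTPRC, which defines leukocytes, had 0.499 to 0.697 CPM with the combination and at most 0.213 CPM in any other library. The 4 endothelial markers summed to 3.90 to 5.04 CPM with the combination, 1.55 to 2.09 CPM with ipatasertib, 1.12 to 1.49 CPM with tazemetostat and 0.545 to 0.963 CPM with DMSO. Among them CDH5 averaged 3.82 ± 0.722 CPM with the combination and 0.924 ± 0.144 with ipatasertib, against 0.15 ± 0.0857 CPM with DMSO (SD, n = 3). The part of the genes of these lists in the kallikrein results was not tested.

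KLK5, KLK6, KLK8 and KLK9 were lower with ipatasertib and higher with tazemetostat, each against DMSO, whereas KLK7, KLK10 and KLK14 were not called in both of these directions. Levels are given in counts per 1000000 of the scaled library total (CPM), a unit that compares 1 gene between libraries. Summed over the 10 genes, kallikrein reads made up 1036 to 1135 CPM with the combination, 534 to 571 CPM with ipatasertib, 1696 to 1755 CPM with tazemetostat and 879 to 936 CPM with DMSO. The 4 groups did not overlap: the sum was lowest with ipatasertib, highest with tazemetostat, and in the combination between the tazemetostat and the DMSO level. In bulk RNA, fewer cells that carry a transcript and less of it per cell cannot be told apart.

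**Figure D1:**
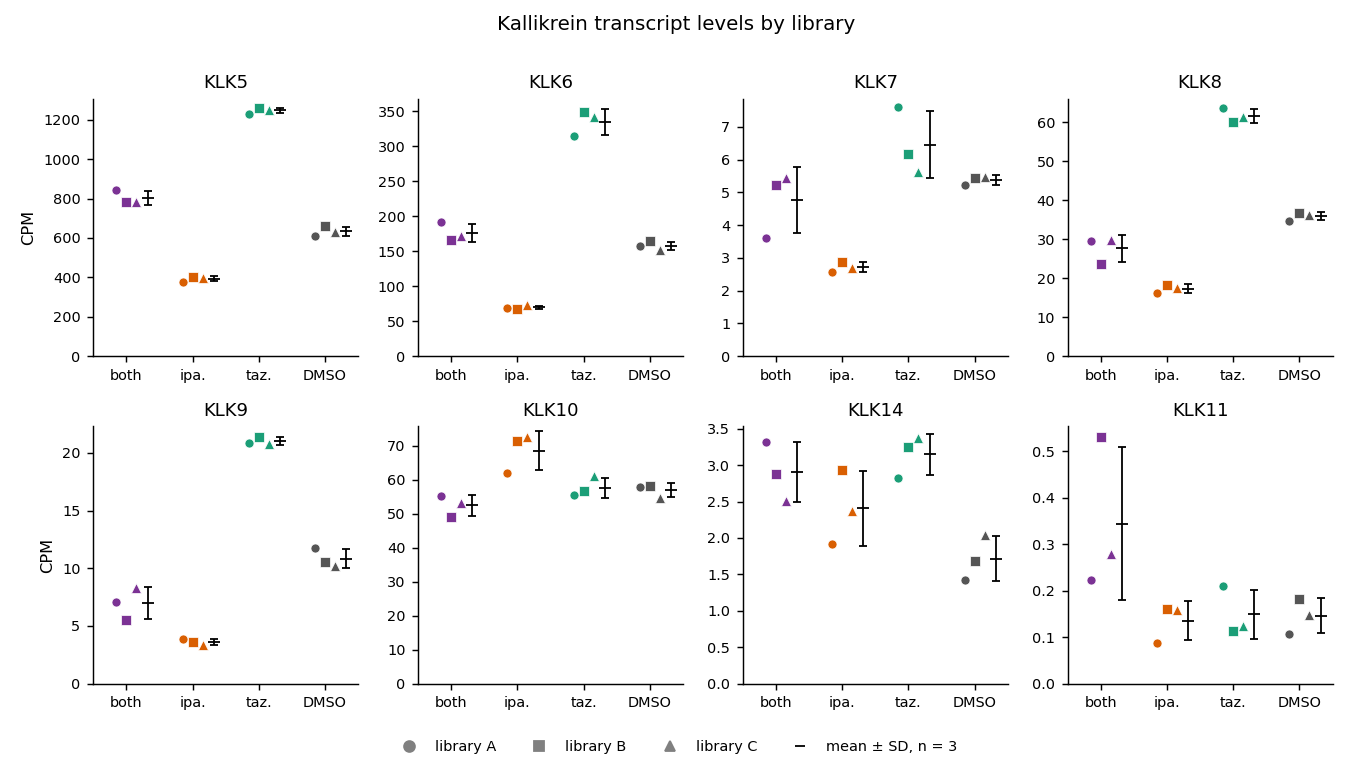
Levels of 8 kallikrein genes in CPM (vertical axes, from 0, a separate scale per gene) in each library of the combination (both), ipatasertib (ipa.), tazemetostat (taz.) and DMSO groups. Symbols are libraries A, B and C and the bars are mean ± SD (n = 3). KLK5, KLK6, KLK7, KLK8 and KLK9 have their highest mean with tazemetostat and their lowest with ipatasertib, whereas KLK10 is highest with ipatasertib. The combination mean is above DMSO for KLK5 and KLK6 and below it for KLK7, KLK8 and KLK9.

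KLK5, a trypsin-like protease that can activate itself and other kallikreins and so stands at the head of the epidermal cascade, supplied most of these reads. It had 845, 783 and 784 CPM with the combination and 378, 404 and 394 CPM with ipatasertib. It had 1231, 1259 and 1251 CPM with tazemetostat, against 611, 659 and 629 CPM with DMSO. No pair of groups overlapped. KLK5 took 74.8% ± 0.695 of the kallikrein reads with the combination, 70.4% ± 0.611 with ipatasertib, 72.0% ± 0.513 with tazemetostat and 70.2% ± 0.621 with DMSO (SD, n = 3). Per length, KLK5 was also the most abundant of the 10. On the median length of its protein-coding transcripts it stood at 580.5 ± 25.5 CPM per kilobase with the combination, 283 ± 9.34 with ipatasertib, 900.4 ± 10.3 with tazemetostat and 457 ± 17.7 with DMSO (SD, n = 3).

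KLK6 came next per length, at 118 ± 8.89 CPM per kilobase with the combination, 46.7 ± 1.61 with ipatasertib, 224 ± 12.2 with tazemetostat and 105 ± 3.95 with DMSO (SD, n = 3). The order of KLK5 above KLK6 held in each group whichever transcript length was used. With DMSO, for instance, KLK5 stood at 405 CPM per kilobase on its longest protein-coding transcript, and KLK6 at 187 on its shortest. KLK8 and KLK10 followed with 62.9 ± 1.86 and 25.2 ± 0.877 CPM per kilobase with DMSO (SD, n = 3). The order of KLK6, KLK8 and KLK10 depended on the transcript, since KLK8 ranged from 27.1 to 134 and KLK10 from 18.3 to 104 CPM per kilobase between the longest and the shortest. KLK9 had 14.4 ± 1.11, KLK7 had 3.83 ± 0.104 and KLK14 had 1.62 ± 0.293 CPM per kilobase with DMSO (SD, n = 3). Which transcripts were present is not known from counts per gene.

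The 300 bases around the annotated starts of the genes that carry the contrast are shown because neighbours in 1 cluster moved in different directions. They run from 250 bases before to 50 bases after the start, come from RefSeq on GRCh38.p14, and lie on the minus strand; capitals mark CpG dinucleotides. KLK5 (chr19:50952989-50953288), KLK6 (chr19:50969542-50969841) and KLK9 (chr19:51009543-51009842) fell with ipatasertib, whereas KLK10 (chr19:51019812-51020111, 1 of its 2 entries) rose. With tazemetostat KLK5, KLK6 and KLK9 rose and KLK10 was not called.
KLK5: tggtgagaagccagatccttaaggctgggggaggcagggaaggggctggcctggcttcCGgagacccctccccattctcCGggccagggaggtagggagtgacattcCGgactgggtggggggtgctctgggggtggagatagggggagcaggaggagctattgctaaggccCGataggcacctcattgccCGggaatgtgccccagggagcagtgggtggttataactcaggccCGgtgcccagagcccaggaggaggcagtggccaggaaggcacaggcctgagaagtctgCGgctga
KLK6: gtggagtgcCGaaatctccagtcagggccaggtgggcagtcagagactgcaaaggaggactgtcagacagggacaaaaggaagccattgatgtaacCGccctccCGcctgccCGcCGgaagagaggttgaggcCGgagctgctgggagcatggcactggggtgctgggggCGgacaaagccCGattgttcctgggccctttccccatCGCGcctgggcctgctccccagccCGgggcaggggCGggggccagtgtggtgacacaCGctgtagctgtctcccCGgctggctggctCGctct
KLK9: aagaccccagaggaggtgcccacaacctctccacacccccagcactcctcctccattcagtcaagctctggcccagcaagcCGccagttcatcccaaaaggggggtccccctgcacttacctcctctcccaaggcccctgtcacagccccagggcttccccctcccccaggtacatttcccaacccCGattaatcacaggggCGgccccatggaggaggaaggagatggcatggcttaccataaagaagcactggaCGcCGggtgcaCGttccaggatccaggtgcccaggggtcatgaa
KLK10: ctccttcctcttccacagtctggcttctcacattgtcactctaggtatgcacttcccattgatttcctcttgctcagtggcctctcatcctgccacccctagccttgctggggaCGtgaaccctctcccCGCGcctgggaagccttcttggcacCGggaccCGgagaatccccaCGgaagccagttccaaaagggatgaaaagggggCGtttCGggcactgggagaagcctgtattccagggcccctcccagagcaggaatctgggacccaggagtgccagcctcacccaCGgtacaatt
These windows held 7 CpG for KLK5, 15 for KLK6, 6 for KLK9 and 9 for KLK10, against a median of 14 over 35116 promoter windows of the same length. Their GC content was 64.7%, 66.3%, 61.7% and 59%, with a median of 58.7% over all windows. The other entry of KLK10 held 11 CpG at a GC content of 63.7%. Of the 10 genes, 9 matched the promoter table, with 16 entries in all. KLK8 had no entry, so its window is not shown. None of the 16 windows held the forkhead motif GTAAACA, the AP-1 motif TGANTCA or the TATA motif TATAAA on either strand; none of the 3 motifs contains another. Over all promoter windows the shares with a match were 3.42%, 7.71% and 11.5%. No match says only that these letters are not in these windows.

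Ipatasertib against DMSO asks what AKT inhibition did to the kallikreins within 24 h. KLK5 to KLK9 fell and KLK10 rose. In edgeR's quasi-likelihood test with Benjamini-Hochberg adjustment over all tested genes (adjusted p under 0.05, "called" in what follows), 5 of the 7 tested kallikreins were lower and 1 was higher. Over all genes tested, 23.1% were called lower and 24% higher. The median log2 fold change of the 7 was -0.99, beside 0.00 over all tested genes. The members were chosen with earlier results of these data known. Here and below, their counts and medians therefore only describe them and are no test of the set.

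KLK9, a little-studied member of the cluster, had the largest fall with ipatasertib among the 7. It had 3.88, 3.58 and 3.31 CPM with ipatasertib, against 11.8, 10.5 and 10.2 CPM with DMSO. The ranges were far apart, and the fall was 3.02-fold (log2 fold change -1.60, SE 0.13, adjusted p = 1.71e-09). KLK6, a trypsin-like protease first known from brain and from ovarian and breast tumours, had 69.0, 67.7 and 72.4 CPM with ipatasertib, against 157, 164 and 152 CPM with DMSO. The 3 ipatasertib libraries lay below all DMSO libraries, at a 2.26-fold lower level (log2 fold change -1.18, SE 0.07, adjusted p = 1.78e-11). KLK8 (neuropsin), a protease of skin and brain, had 16.1, 18.3 and 17.5 CPM with ipatasertib, against 34.7, 36.7 and 36.3 CPM with DMSO, a 2.07-fold fall (log2 fold change -1.05, SE 0.09, adjusted p = 3.17e-09). KLK7, a chymotrypsin-like protease that KLK5 activates and that loosens the outermost skin cells, had 2.57, 2.88 and 2.68 CPM with ipatasertib, against 5.21, 5.45 and 5.48 CPM with DMSO. It fell 1.99-fold (log2 fold change -0.99, SE 0.16, adjusted p = 2.71e-05) on 54 to 68 counts per ipatasertib library. KLK5 had the smallest fall of the 5, 1.62-fold (log2 fold change -0.69, SE 0.06, adjusted p = 6.11e-09). None of the 5 overlapped between the groups. The share of all tested genes without overlap was not computed, so here and below non-overlap only describes the libraries.

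KLK10, first described as a gene of normal mammary cells that many breast tumours have lost, had 61.9, 71.3 and 72.6 CPM with ipatasertib, against 58.0, 58.2 and 54.7 CPM with DMSO. All ipatasertib libraries were above all DMSO libraries, and the fitted rise was 1.20-fold (log2 fold change 0.27, SE 0.07, adjusted p = 0.00531). KLK14, a trypsin-like protease with a strong action on proteinase-activated receptors, had 1.92, 2.94 and 2.37 CPM with ipatasertib, against 1.42, 1.68 and 2.04 CPM with DMSO. Its ranges overlapped and it was not called (log2 fold change 0.48, 95% interval 0.07 to 0.89, adjusted p = 0.0528). Of the 20 alternative settings, 5 put KLK14 past the threshold.

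The same drug effect can be read in separate libraries as the combination against tazemetostat, in which both arms hold tazemetostat. The same 5 genes were called lower and none of the 7 was higher, while 23.1% of all tested genes were called lower and 23.2% higher. DESeq2 also called none of the 7 higher, and none was higher at an unadjusted p under 0.05. KLK9 had 7.09, 5.54 and 8.29 CPM with the combination, against 20.9, 21.4 and 20.8 CPM with tazemetostat, a 2.998-fold lower level (log2 fold change -1.58, SE 0.12, adjusted p = 3.58e-10). KLK8 had 29.6, 23.7 and 29.8 CPM with the combination, against 63.6, 60.1 and 61.2 CPM with tazemetostat, and was 2.22-fold lower (log2 fold change -1.15, SE 0.08, adjusted p = 3.80e-10). KLK6 had 191, 166 and 171 CPM with the combination, against 314, 349 and 341 CPM with tazemetostat. That is a 1.90-fold lower level (log2 fold change -0.93, SE 0.07, adjusted p = 3.66e-10), and KLK5 was 1.55-fold lower (log2 fold change -0.63, SE 0.06, adjusted p = 1.70e-08). In these 4 genes the groups did not overlap and every library of the combination was below every tazemetostat library.

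KLK7 was the weakest of the 5 calls in this comparison. It had 3.60, 5.23 and 5.43 CPM with the combination, against 7.60, 6.16 and 5.61 CPM with tazemetostat (log2 fold change -0.45, SE 0.15, adjusted p = 0.0206). Library A was the lowest in 1 group and the highest in the other. The call was lost without the A library of the combination (log2 fold change -0.26, adjusted p = 0.173), without that of tazemetostat (-0.34, adjusted p = 0.0843) and without all A libraries (-0.14, adjusted p = 0.465). It was also lost, at nearly the same fold change (-0.45), when only the groups compared were fitted (adjusted p = 0.0517). KLK10 had 55.2, 49.1 and 53.0 CPM with the combination, against 55.4, 56.5 and 61.0 CPM with tazemetostat. The groups lay side by side without overlap, and KLK10 was not called (log2 fold change -0.13, 95% interval -0.30 to 0.03, adjusted p = 0.161). Without all A libraries it was called lower (-0.20, adjusted p = 0.0153). KLK14 was not called either (log2 fold change -0.11, 95% interval -0.50 to 0.28, adjusted p = 0.654).

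Tazemetostat against DMSO asks what EZH2 inhibition did. KLK5, KLK6, KLK8, KLK9 and KLK14 rose. Of the 7 tested, 5 were called higher and none lower, while 25.9% of all tested genes were called higher and 21.3% lower. DESeq2 also called none of the 7 lower, and none was lower at an unadjusted p under 0.05. The median log2 fold change of the 7 was 0.89, beside 0.01 over all tested genes. KLK6 rose 2.12-fold (log2 fold change 1.09, SE 0.07, adjusted p = 1.76e-11), with 314, 349 and 341 CPM with tazemetostat against 157, 164 and 152 CPM with DMSO. KLK5 rose 1.97-fold (log2 fold change 0.98, SE 0.06, adjusted p = 1.16e-11) and KLK9 1.94-fold (log2 fold change 0.95, SE 0.10, adjusted p = 1.11e-07). KLK8 rose 1.72-fold (log2 fold change 0.78, SE 0.08, adjusted p = 5.68e-08). All tazemetostat libraries lay above all DMSO libraries in these 4 genes.

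KLK14 had 2.83, 3.25 and 3.37 CPM with tazemetostat, against 1.42, 1.68 and 2.04 CPM with DMSO. It rose 1.85-fold without overlap (log2 fold change 0.89, SE 0.19, adjusted p = 0.000522), on 54 to 87 counts per tazemetostat library. KLK7 had 7.60, 6.16 and 5.61 CPM with tazemetostat, against 5.21, 5.45 and 5.48 CPM with DMSO. The groups did not overlap, but the gap between the nearest libraries was small and KLK7 was not called (log2 fold change 0.25, 95% interval -0.04 to 0.54, adjusted p = 0.141). KLK10 had 55.4, 56.5 and 61.0 CPM with tazemetostat, against 58.0, 58.2 and 54.7 CPM with DMSO. Its groups overlapped, and the interval of its change ran from -0.14 to 0.17 on the log2 scale around 0.02 (adjusted p = 0.864).

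Read in the other libraries, as the combination against ipatasertib, KLK5 to KLK9 were higher and KLK10 was lower. Here 5 of the 7 were called higher and 1 lower, while 24.2% of all tested genes were called higher and 20.7% lower. KLK6 was 2.53-fold higher with the combination than with ipatasertib (log2 fold change 1.34, SE 0.07, adjusted p = 8.40e-13), KLK5 2.05-fold (log2 fold change 1.04, SE 0.06, adjusted p = 4.10e-12) and KLK9 1.95-fold (log2 fold change 0.97, SE 0.14, adjusted p = 1.03e-05). KLK7 was 1.73-fold higher (log2 fold change 0.79, SE 0.18, adjusted p = 0.000858) and KLK8 1.61-fold higher (log2 fold change 0.68, SE 0.09, adjusted p = 2.49e-06). KLK10 was the 1 called lower, 1.31-fold, with 55.2, 49.1 and 53.0 CPM with the combination against 61.9, 71.3 and 72.6 CPM with ipatasertib (log2 fold change -0.39, SE 0.08, adjusted p = 0.00031). The groups of these 6 genes did not overlap. KLK14 had 3.32, 2.88 and 2.51 CPM with the combination, against 1.92, 2.94 and 2.37 CPM with ipatasertib, and its ranges overlapped (log2 fold change 0.30, 95% interval -0.11 to 0.71, adjusted p = 0.23).

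**Figure D2:**
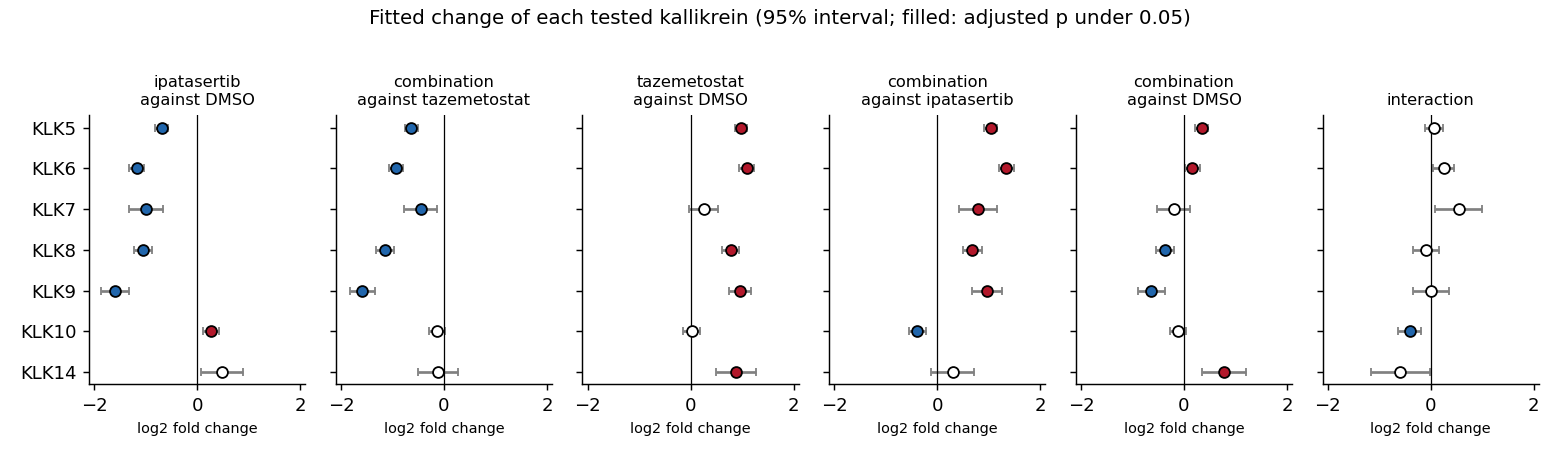
Fitted log2 fold change (horizontal axes) of the 7 tested kallikreins in the 6 comparisons, with 95% intervals as bars. Filled points have an adjusted p under 0.05 in edgeR's test, red when higher and blue when lower, and open points do not. KLK5 to KLK9 lie left of 0 where ipatasertib is the difference, with KLK9 farthest at -1.60 and -1.58, and KLK10 is the 1 filled point for the interaction, at -0.40.

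With both drugs against DMSO, KLK5, KLK6 and KLK14 were called higher and KLK8 and KLK9 lower. These 3 and 2 of the 7 lie near the background, since 34.4% of all tested genes were called higher and 30% lower. KLK5 was 1.27-fold higher (log2 fold change 0.34, SE 0.06, adjusted p = 3.10e-05), with 783 CPM as the lowest combination library and 659 CPM as the highest DMSO library. KLK14 was 1.71-fold higher, with 3.32, 2.88 and 2.51 CPM with the combination against 1.42, 1.68 and 2.04 CPM with DMSO (log2 fold change 0.77, SE 0.20, adjusted p = 0.00226). Without all A libraries KLK14 was not called (log2 fold change 0.52, adjusted p = 0.0627). KLK9 was 1.55-fold lower, with 7.09, 5.54 and 8.29 CPM with the combination against 11.8, 10.5 and 10.2 CPM with DMSO (log2 fold change -0.63, SE 0.12, adjusted p = 0.000112). KLK8 was 1.29-fold lower, with 29.6, 23.7 and 29.8 CPM with the combination against 34.7, 36.7 and 36.3 CPM with DMSO (log2 fold change -0.37, SE 0.09, adjusted p = 0.000777). Neither overlapped between the groups.

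KLK6 was the third higher call, and it rested on the settings. It had 191, 166 and 171 CPM with the combination, against 157, 164 and 152 CPM with DMSO (log2 fold change 0.16, SE 0.07, adjusted p = 0.0439). The call was lost in 16 of 20 alternative settings, among them DESeq2 (adjusted p = 0.0532) and the replicate letter as a block (adjusted p = 0.0788). KLK7 was not called (log2 fold change -0.20, 95% interval -0.52 to 0.13, adjusted p = 0.272), nor was KLK10 (log2 fold change -0.12, 95% interval -0.28 to 0.04, adjusted p = 0.189). The comparisons with DMSO share its 3 libraries and are not independent of one another.

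The interaction asks whether the effect of both drugs departed from the product of the single effects. Of the 7 kallikreins, KLK10 alone was called, in the lower direction, while 5.96% of all tested genes were called higher and 6.01% lower. DESeq2 likewise called none higher and 1 lower. At an unadjusted p under 0.05, KLK6 and KLK7 were higher and KLK14 lower as well. The KLK10 level of 52.4 CPM with the combination stood at 0.755 of the 69.4 CPM that the product of the single ratios gives (log2 interaction -0.40, SE 0.11, adjusted p = 0.0201). Its call was lost when DMSO C, ipatasertib C, tazemetostat C or combination B was left out (adjusted p = 0.06 to 0.0762). For KLK9 the observed 6.97 CPM and the product of 6.96 CPM were nearly the same (log2 interaction 0.01, 95% interval -0.33 to 0.36). For KLK5 the observed level was 1.04 times the product (log2 interaction 0.06, 95% interval -0.12 to 0.23), and for KLK8 it was 0.93 times (-0.10, 95% interval -0.35 to 0.15). KLK6 stood at 1.19 times the product (adjusted p = 0.0908), KLK7 at 1.46 times (adjusted p = 0.112) and KLK14 at 0.657 times (adjusted p = 0.155). Without the A library of the combination KLK7 was called at a log2 interaction of 0.73 (adjusted p = 0.0199), without that of tazemetostat at 0.68 (adjusted p = 0.0263) and without all A libraries at 0.84 (adjusted p = 0.00535). KLK14 was called without all A libraries (-0.78, adjusted p = 0.0492).

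**Figure D3:**
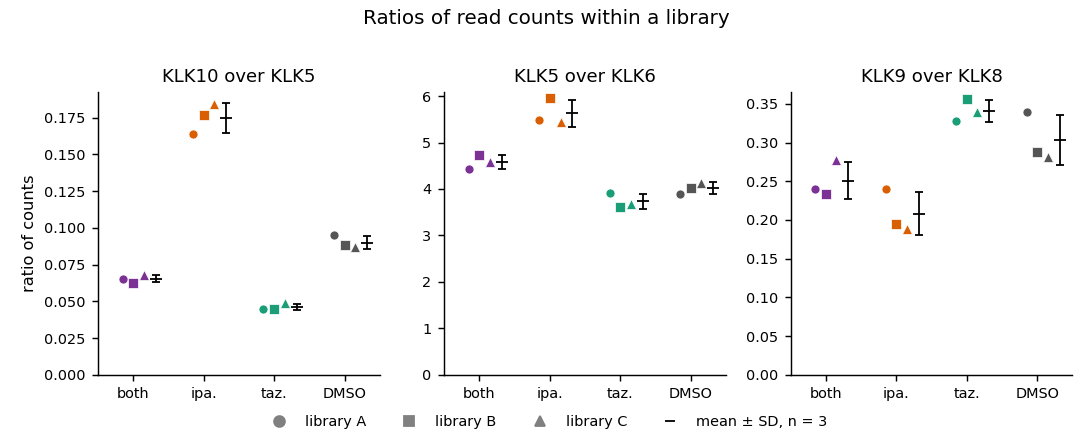
Ratios of read counts within a library (vertical axes, from 0) for KLK10 over KLK5, KLK5 over KLK6 and KLK9 over KLK8, in the combination (both), ipatasertib (ipa.), tazemetostat (taz.) and DMSO groups; symbols are libraries and bars mean ± SD (n = 3). KLK10 over KLK5 averages 0.175 with ipatasertib and 0.0462 with tazemetostat, and the 4 groups do not overlap.

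Ratios of 2 kallikreins within a library do not depend on the scaling of library totals. The smallest p that an exact permutation test of 3 against 3 libraries can give is 0.1, so the ratios are given without a test. KLK10 over KLK5 was 0.0652 ± 0.00241 with the combination, 0.175 ± 0.0103 with ipatasertib, 0.0462 ± 0.00221 with tazemetostat and 0.0900 ± 0.00423 with DMSO (SD, n = 3). KLK5 over KLK6 was 4.57 ± 0.151 with the combination, 5.63 ± 0.288 with ipatasertib, 3.73 ± 0.166 with tazemetostat and 4.02 ± 0.122 with DMSO (SD, n = 3). The ipatasertib libraries had the highest value of both ratios and the tazemetostat libraries the lowest mean. KLK9 over KLK8 was 0.251 ± 0.024 with the combination, 0.208 ± 0.0282 with ipatasertib, 0.341 ± 0.014 with tazemetostat and 0.303 ± 0.0323 with DMSO (SD, n = 3). In that ratio the tazemetostat range overlapped the DMSO range, and the combination and ipatasertib ranges lay below both.

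KLK11, KLK12 and KLK13 were at or near the limit of detection, where 3 counts in a library equal 0.106 to 0.228 CPM. KLK11, a protease of prostate and other glands, had 4, 7 and 4 counts with the combination, 2, 3 and 4 with ipatasertib, 4, 3 and 3 with tazemetostat and 3, 4 and 4 with DMSO. KLK13 had 1 or 2 counts per library with the combination, ipatasertib and tazemetostat and 1, 3 and 4 counts with DMSO. In a fit without the filter, over 19877 genes, neither was called in any of the 6 comparisons, and the adjusted p of KLK11 against DMSO with the combination was 0.156. The SE of their log2 fold changes against DMSO was 0.68 to 0.97. KLK12 had 0 counts over the 12 libraries together, which allows up to 0.0115 CPM.

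Across the 12 libraries, KLK8 and KLK9 followed each other most closely among the 7 tested kallikreins, with a Pearson r of log2 CPM of 0.99, and KLK5 and KLK6 had the same r of 0.99. KLK7 reached 0.84 to 0.88 with KLK5, KLK6, KLK8 and KLK9. KLK10 ran against them, at -0.42 to -0.69, and KLK14 was only loosely like any, from -0.05 with KLK10 to 0.51 with KLK5. These are descriptions over 4 groups of libraries that share their treatments. In the GENCODE annotation KLK8 and KLK9 overlap a readthrough gene and an antisense gene spans KLK6 to KLK9, and other antisense genes overlap KLK5, KLK6, KLK10 and KLK12. Whether reads were counted by strand was not given in the sources used here. Reads of such partners therefore cannot be told apart from those of the kallikreins.

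Outside the cluster, the genes most like each abundant kallikrein were the 3 of 10975 candidates with the highest r over the 12 libraries. KLK8 and KLK9 had the same 3: CASP14, the caspase of the cornified layer of skin, ZNF467, a zinc finger protein, and TTC39A. CASP14 reached an r of 0.99 with KLK8 and 0.99 with KLK9. It had 1221, 1144 and 1152 CPM with the combination, 642, 632 and 613 CPM with ipatasertib, 2818, 2853 and 2838 CPM with tazemetostat and 1533, 1611 and 1601 CPM with DMSO. As with KLK8 and KLK9, tazemetostat was on top, DMSO next, then the combination, then ipatasertib, without overlap. CASP14 was picked for this likeness over the same libraries, so the shared order follows from the choice. The genes most like KLK5 were VOPP1, TSC22D3 (the glucocorticoid-induced leucine zipper) and ACSL1 (a fatty acid CoA ligase), with r of 0.99 each. Those most like KLK6 were HMOX1 (heme oxygenase), P4HA2 (a collagen hydroxylase) and TP53INP2, with r of 0.99. KLK10 had looser companions in TEX264, PGS1 and FUK, with r of 0.92, 0.92 and 0.91.

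**Figure D4:**
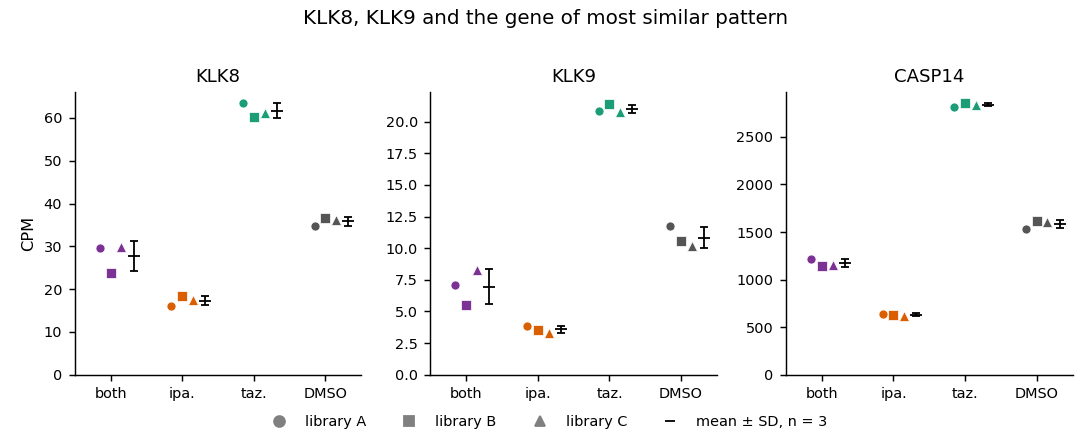
Levels in CPM (vertical axes, from 0) of KLK8, KLK9 and CASP14 in each library of the combination (both), ipatasertib (ipa.), tazemetostat (taz.) and DMSO groups, with mean ± SD (n = 3). The 3 genes have the same order of groups, with CASP14 between 613 CPM with ipatasertib and 2853 CPM with tazemetostat.

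The genes next to the 10, and the other kallikreins, were mostly below the filter. Of 10 neighbouring genes, 3 were tested. With ipatasertib against DMSO C19orf48 was called higher (log2 fold change 0.27, adjusted p = 0.0347, lost in 8 of 20 settings), and CTU1, a tRNA thiolation enzyme, was not called. With tazemetostat against DMSO CTU1 was called lower (log2 fold change -0.40, adjusted p = 0.0386, lost in 6 of 20 settings), and C19orf48 was not called. Over all tested genes, 24% were called higher and 23.1% lower with ipatasertib, and 25.9% higher and 21.3% lower with tazemetostat. CD33, a sialic acid-binding receptor of myeloid cells, reached the filter's level only in libraries with tazemetostat, alone or combined, so its levels are given without a test. It had 2.16, 2.58 and 1.88 CPM with the combination and 1.78, 2.20 and 2.37 CPM with tazemetostat. In the ipatasertib and DMSO libraries CD33 had at most 1 count each. Of the 5 other tissue kallikreins, KLK1 alone was tested and averaged 0.768 ± 0.429 CPM with the combination, 0.215 ± 0.0938 with ipatasertib, 0.759 ± 0.265 with tazemetostat and 0.228 ± 0.109 with DMSO (SD, n = 3). KLK1, too, reached the filter's level only in libraries with tazemetostat, alone or combined, and had 2 to 28 counts per library over all groups.

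Among the inhibitors of kallikreins, A2M was higher and PI3 lower with tazemetostat than with DMSO. Of 10 inhibitor genes 7 were tested. Against DMSO, 4 were called higher and 2 lower with the combination (34.4% and 30% over all tested genes), 1 higher and 2 lower with ipatasertib (24% and 23.1%), and 5 higher and 1 lower with tazemetostat (25.9% and 21.3%). SPINK5 and A2ML1 are among the 7, and they reached the filter's level only in libraries with tazemetostat, so the counts of higher calls with that drug are no support for a direction. SPINK5, whose product LEKTI binds KLK5, KLK7 and KLK14 in skin, had 1.11, 2.05 and 2.09 CPM with the combination, 0.0871, 0.107 and 0.276 CPM with ipatasertib, 1.57, 1.27 and 1.25 CPM with tazemetostat and 0.142, 0.182 and 0.111 CPM with DMSO. Libraries with tazemetostat, alone or combined, were above all others, and no test is given for SPINK5. A2M, a plasma inhibitor that traps proteases of all classes, had 77.3, 71.0 and 78.7 CPM with the combination, 3.09, 3.20 and 3.31 CPM with ipatasertib, 48.6, 53.1 and 50.4 CPM with tazemetostat and 2.59, 2.998 and 2.56 CPM with DMSO. It rose 18.8-fold with tazemetostat (log2 fold change 4.23, SE 0.10, adjusted p = 7.70e-19) and 28.0-fold with the combination (log2 fold change 4.81, SE 0.10, adjusted p = 3.24e-20).

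SERPINA3, the serpin antichymotrypsin, rose in the same way to 37.2 ± 3.68 CPM with the combination and 26.6 ± 1.34 CPM with tazemetostat, against 15.7 ± 0.94 CPM with DMSO (SD, n = 3). PI3 (elafin) and SLPI, inhibitors of elastase-like proteases, fell in some comparisons. PI3 averaged 15.3 ± 2.08 CPM with the combination, 52.7 ± 10.9 with ipatasertib, 23.8 ± 2.27 with tazemetostat and 69.9 ± 3.43 with DMSO (SD, n = 3), and was called lower in all 3 comparisons with DMSO. SLPI averaged 245 ± 38.2 CPM with ipatasertib, against 350 ± 16.8 CPM with DMSO (SD, n = 3), and was called lower (log2 fold change -0.52, SE 0.09, adjusted p = 5.03e-05).

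**Figure D5:**
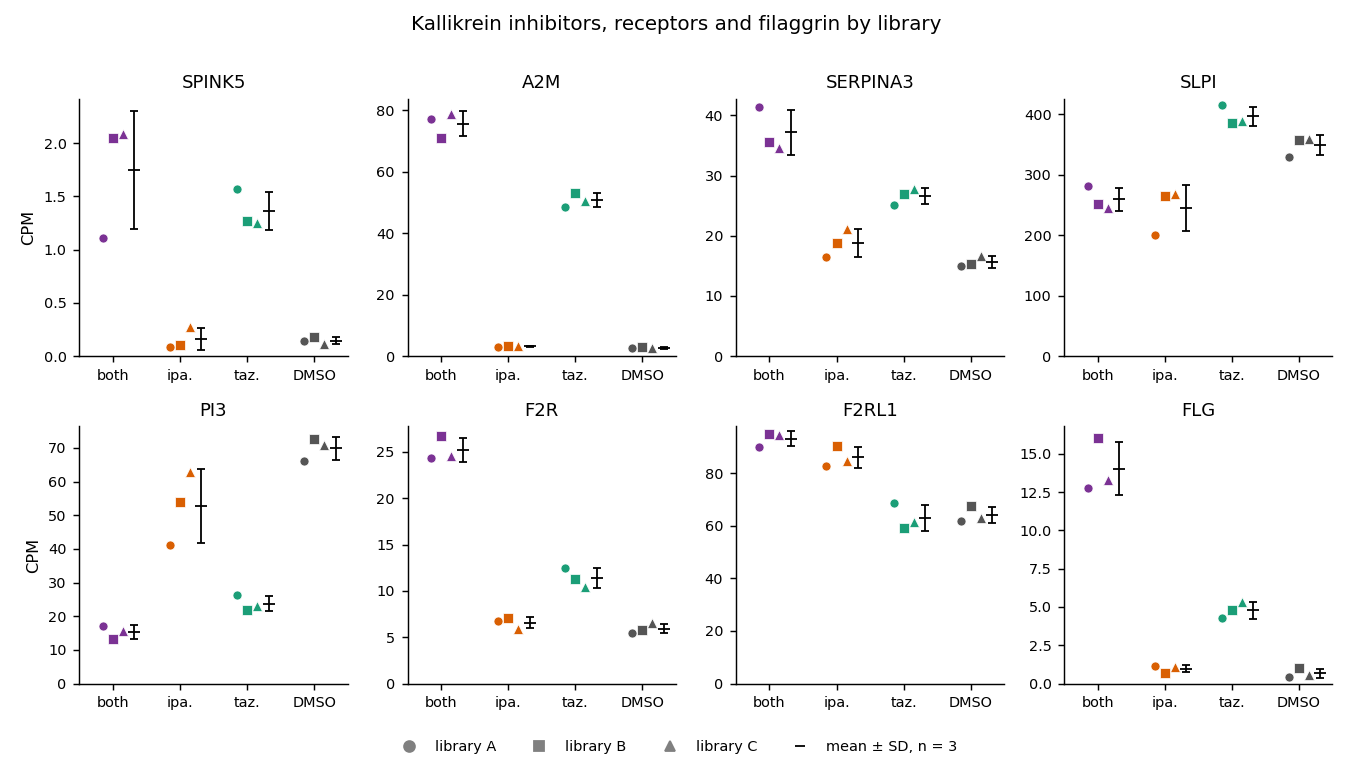
Levels in CPM (vertical axes, from 0, a separate scale per gene) of 5 inhibitors (SPINK5, A2M, SERPINA3, SLPI, PI3), the receptors F2R and F2RL1, and FLG in each library of the combination (both), ipatasertib (ipa.), tazemetostat (taz.) and DMSO groups, with mean ± SD (n = 3). A2M and SPINK5 are high in the libraries with tazemetostat, and FLG and F2R are highest with the combination, at 14.0 and 25.2 CPM.

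Among membrane proteases that activate kallikreins and their own inhibitors, 5 of 9 genes were tested. Against DMSO, 2 were called higher and 1 lower with the combination (34.4% and 30% over all tested genes), 1 higher and 1 lower with ipatasertib (24% and 23.1%), and 2 higher with tazemetostat (25.9%), shares not far from the background for 5 genes. ST14 (matriptase) averaged 192 ± 14.0 CPM with the combination, 214 ± 9.47 with ipatasertib, 239 ± 14.4 with tazemetostat and 213 ± 6.19 with DMSO (SD, n = 3). Its rise with tazemetostat (log2 fold change 0.17, adjusted p = 0.0434) was lost in 12 of 20 settings. TMPRSS13, a transmembrane serine protease, averaged 52.1 ± 5.21 CPM with the combination, 48.5 ± 1.62 with ipatasertib, 62.8 ± 5.30 with tazemetostat and 42.6 ± 2.62 with DMSO (SD, n = 3), and rose with tazemetostat (log2 fold change 0.56, SE 0.08, adjusted p = 7.88e-06). SPINT1, the matriptase inhibitor HAI-1, rose with ipatasertib (log2 fold change 0.43, SE 0.07, adjusted p = 4.34e-05). SPINT2, a related inhibitor, fell with the combination (log2 fold change -0.36, SE 0.07, adjusted p = 0.000116).

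Of 12 substrates and receptors 8 were tested. Against DMSO, 4 were called higher and 2 lower with the combination (34.4% and 30% over all tested genes), 1 higher and 2 lower with ipatasertib (24% and 23.1%), and 4 higher and 1 lower with tazemetostat (25.9% and 21.3%). FLG, encoding the epidermal matrix protein filaggrin, had 12.7, 16.0 and 13.3 CPM with the combination, 1.13, 0.694 and 1.10 CPM with ipatasertib, 4.24, 4.78 and 5.32 CPM with tazemetostat and 0.426, 0.999 and 0.556 CPM with DMSO. Its rise was 7.48-fold with tazemetostat (log2 fold change 2.90, SE 0.23, adjusted p = 6.62e-10) and 21.7-fold with the combination (log2 fold change 4.44, SE 0.20, adjusted p = 2.90e-14). F2R, the thrombin receptor PAR-1, had 24.4, 26.7 and 24.6 CPM with the combination, 6.80, 7.05 and 5.87 CPM with ipatasertib, 12.5, 11.3 and 10.4 CPM with tazemetostat and 5.50, 5.77 and 6.52 CPM with DMSO. The combination libraries were above all others, and the log2 fold change against DMSO was 2.09 (SE 0.11, adjusted p = 1.88e-13).

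F2RL1, the receptor PAR-2 that KLK5 and KLK14 cleave, averaged 86.0 ± 4.02 CPM with ipatasertib, against 64.1 ± 2.96 CPM with DMSO (SD, n = 3), and rose (log2 fold change 0.42, SE 0.07, adjusted p = 4.12e-05). CDH1, the adhesion protein E-cadherin, averaged 121 ± 2.89 CPM with ipatasertib, against 151 ± 1.78 CPM with DMSO (SD, n = 3), and fell (log2 fold change -0.32, SE 0.06, adjusted p = 0.000233). It rose to 172 ± 8.10 CPM with tazemetostat (SD, n = 3; log2 fold change 0.19, SE 0.06, adjusted p = 0.0159). PLAU, the protease urokinase, averaged 7.48 ± 0.28 CPM with the combination, 5.61 ± 0.455 with ipatasertib, 15.5 ± 0.36 with tazemetostat and 7.51 ± 1.39 with DMSO (SD, n = 3). It rose with tazemetostat (log2 fold change 1.05, SE 0.11, adjusted p = 1.16e-07), whereas its receptor PLAUR fell (log2 fold change -0.41, SE 0.10, adjusted p = 0.00229).

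Kallikreins are steroid-responsive in several tissues, so the receptors were looked up. Of 5 receptor genes 3 were tested. NR3C1, the glucocorticoid receptor, had 143, 168 and 159 CPM with the combination, 125, 129 and 117 CPM with ipatasertib, 96.9, 82.6 and 87.7 CPM with tazemetostat and 86.8, 85.3 and 81.9 CPM with DMSO. It rose with ipatasertib (log2 fold change 0.54, SE 0.07, adjusted p = 3.96e-06) and with the combination (log2 fold change 0.89, SE 0.07, adjusted p = 9.79e-10). VDR, the vitamin D receptor, rose with ipatasertib to 169 ± 2.23 CPM and fell with tazemetostat to 76.1 ± 5.06 CPM, against 117 ± 7.03 CPM with DMSO (SD, n = 3; log2 fold changes 0.53 and -0.62, adjusted p = 2.86e-06 and 3.07e-07). ESR1, the estrogen receptor, was not called in any of the 6 comparisons, and PGR was below the filter.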

How the data were processed

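Poly(A) RNA of MDA-MB-468 was measured in 4 groups of 3 libraries; per the labels' protocols the kits were RNeasy Plus and Kapa Hyper Prep. For each library the authors deposited a table of unnormalized counts by symbol. STAR, SAMtools, HTSeq, DESeq2 and hg19 are named in the submitters' processing notes, with versions, annotation and strand setting not given in the sources used here. A series-wide table of scaled values was not used. Library sizes leave out HTSeq's summary lines; genes took 60.5% to 68.0% of the counted total, and 1.54% to 1.83% was ambiguous between genes.

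Genes were filtered with filterByExpr at a minimum count of 10, and TMM factors scaled the totals. edgeR 4.0.16 (R 4.3.3) fitted all 12 libraries together, 1 mean per group, leaving 8 residual degrees of freedom. The robust quasi-likelihood test was applied to 6 comparisons, with Benjamini-Hochberg adjustment over 14571 genes and a threshold of 0.05. CPM use the TMM-scaled totals. Floors of 3 counts cover counting error only. CPM per kilobase use lengths of protein-coding GENCODE transcripts.

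The procedure was tested on simulated counts. The settings varied were the scaling (RLE, library totals), the tool (DESeq2 1.42.0), no filter, 50 counts in 3 libraries, only the groups compared, the replicate letter as a block and each library left out; a fit without the A libraries was added after seeing the data. The 10 members and the gene lists were chosen with earlier results of these data known. Named list genes were called in a comparison and had a group mean of at least 1 CPM, at most 4 per list and comparison. KLK1, below that level, was named after its values were seen. The CDH1 rise with tazemetostat was also named outside this rule, beyond the 4 of its list, and is given without a range over settings. Genes of like pattern had the highest Pearson r of log2 CPM (prior count 2) among genes of at least 5 CPM.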

Additional observations from a re-analysis of the deposited data

Results flagged for a closer look

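By the interaction term of the edgeR fit, 1 of 7 tested kallikreins was called different in its tazemetostat effect with and without ipatasertib. So were 2 of 5 tested membrane proteases and their inhibitors, both lower, and 1 higher and 1 lower of 8 tested substrates and receptors. None of 7 tested kallikrein inhibitors was called, and 3 of 7 basal markers were. KLK10 had a log2 interaction of -0.40 (adjusted p = 0.0201; the call was lost in 4 of 19 settings). ST14, which encodes matriptase, had -0.33 (adjusted p = 0.0309; lost in 9 of 19 settings). TMPRSS13 had -0.45 (adjusted p = 0.0172; lost in 4 of 19 settings). F2R, encoding PAR-1, had 1.01 (adjusted p = 0.000627; called in all 19 settings). PLAU, encoding urokinase, had -0.63 (adjusted p = 0.0264; lost in 7 of 19 settings). Among the basal keratins, KRT5 had -0.65 (adjusted p = 0.000512), KRT6B -0.57 (adjusted p = 0.00836) and KRT14 -0.34 (adjusted p = 0.0293). KRT17 was not called (-0.09, adjusted p = 0.62). The keratins were not run through the other settings, so how stable these calls are is not known. Over all tested genes 5.96% were called higher and 6.01% lower for this term. For so few genes the kallikrein count is not far from these shares, and the causes were not tested.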

How the results depend on the processing

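Of the 42 fold changes of tested kallikreins, 31 kept their direction and their side of the threshold in each setting run. Among the other 11, KLK10 with tazemetostat against DMSO lay between -0.046 and 0.031 with 1 library left out. The interaction of KLK9 lay between -0.12 and 0.15 with 1 library left out, at -0.041 with library totals and at -0.0054 without the A libraries, and that of KLK8 between -0.15 and 0.011 with 1 library left out. With ipatasertib against DMSO 2 kallikreins were called higher, not 1, with library totals and with 50 counts in 3 libraries, and 1 to 2 with 1 library left out. With the combination against DMSO 1 was called higher without the A libraries, and 2 to 3 with 1 library left out. For the interaction 0 to 1 kallikreins were called higher and 0 to 1 lower with 1 library left out, and 1 higher and 2 lower without the A libraries. The causes were not tested.

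Samples with the same letter deviated together over 0.1 in only some pairs (0.14, 0.06 and 0.03 for ipatasertib with DMSO). For the combination with tazemetostat the same-letter values were negative, at -0.30 for A, -0.19 for B and -0.09 for C. The main fit did not pair the samples by letter, and what libraries of the same letter have in common was not tested. With the replicate block the KLK6 call of the combination against DMSO was lost (log2 fold change 0.16, adjusted p = 0.0788), no other kallikrein call changed, and interaction calls over all genes numbered 533 higher and 479 lower, against 869 and 875 without it. They numbered 357 to 2017 higher and 262 to 1726 lower with 1 library left out, with the fewest without DMSO C or combination B and the most without tazemetostat A or combination A, and 2605 and 2847 without the A libraries. Library totals moved the share of higher among called genes to 67.9% for tazemetostat against DMSO, beside 54.9% with TMM factors, and for the interaction to 33.6%, beside 49.8%, with 1369 lower calls; the median over all genes shifted by less than 0.1. Of 68 calls of list genes 14 were lost in at least 1 setting and none changed direction. Low counts limit the precision for KLK11, KLK12 and KLK13.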
